A study of Mus musculus with 6 samples.

Results

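A set of 10 genes of triglyceride and phosphatidylcholine synthesis and of VLDL assembly was followed in fasted liver with and without *Pak4* in hepatocytes. They were taken by gene symbol from a table of 45777 genes and comprise *Gpam*, *Agpat2*, *Lpin1*, *Lpin2*, *Dgat1*, *Dgat2*, *Mogat1*, *Pemt*, *Chka* and *Mttp*. All 10 were found and all 10 passed the filter on low counts. Liver RNA came from 3 WT mice (*Pak4* flox/flox, without Cre) and 3 LKO mice, which carried Alb-Cre on *Pak4* flox/flox, all of them C57BL/6 males aged 8 weeks and fasted for 24 h, with 1 library per mouse. Cre was driven by the albumin promoter and so acts in hepatocytes, while the other cells of the liver keep *Pak4*. No group carried Alb-Cre without the floxed alleles, so effects of Cre and of *Pak4* loss cannot be told apart.

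Hepatocytes build triglyceride by adding acyl chains in turn to glycerol 3-phosphate. GPAM adds the first acyl chain and AGPAT2 the second, lipins remove the phosphate to give diacylglycerol, and DGAT enzymes add the last chain. Diacylglycerol is also the branch point to phosphatidylcholine, which liver makes from choline through choline kinase or by methylation of phosphatidylethanolamine through PEMT. MTTP then loads triglyceride onto apolipoprotein B, which gives the VLDL particle that leaves the cell.

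In LKO livers *Dgat2*, *Gpam* and *Mttp* were lower than in WT livers, at 0.319, 0.371 and 0.631 of the WT mean, without overlap between the mice. These are CPM, read counts scaled to library size with TMM factors, and the 3 falls passed the quasi-likelihood test of edgeR, with p-values adjusted by Benjamini-Hochberg (adjusted p = 0.00196, 0.0100 and 0.0143). The other 7 genes did not pass, and none of the 10 passed as higher. Over all 18636 genes tested, 20.5% passed as lower and 19.6% as higher. In all, 40.1% passed in either direction. The 3 of 10 is near the share of lower genes and is not a result about the list as a whole. The count was also 3 of 10 when protein-coding genes alone were fitted, where 22.7% of genes passed as lower. The median log2 fold change of the 10 genes was −0.53 against −0.04 for all genes tested. In bulk tissue, fewer cells of a type and less RNA per cell cannot be told apart.

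The scale matters for every level given here. Total counts were 45934632 to 55205564 for WT against 53936281 to 59576437 for LKO livers, but the TMM factors were 1.28 to 1.43 for WT and 0.639 to 0.816 for LKO libraries. The RNAs 7SL and 7SK took 5.05% to 5.84% of the counts of WT and 13.8% to 18.2% of those of LKO libraries, and 24.1% to 28.0% against 44.4% to 53.9% of the TPM. When total counts replaced TMM, the median log2 fold change of all genes tested moved to −0.90, and it was −0.79 for log2(TPM + 1). Under total counts 8 of the 10 genes passed as lower, against 51.4% of all genes. On log2(TPM + 1), tested with limma, all 10 did, against 67.2%. Every LKO mouse lay below every WT mouse for 3 of the 10 genes in CPM after TMM (27.9% of all genes, with 26.1% the other way), for 8 in CPM by total counts (57.9%) and for 10 in TPM (74.9%). Since the scale moves all genes, values relative to the median of all genes on the same scale are given for the 10 genes and for genes whose sign changed with the scale. On log2(TPM + 1) genes do not move alike, because the added 1 draws genes of low TPM toward 0. Without it the median log2 ratio of mean TPM of all genes tested was −1.59. Values relative to −0.79 are therefore too low for genes well above 1 TPM.

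*Pak4* was at 3.59, 3.21 and 4.1 CPM after TMM for WT mice 1, 2 and 3 against 1.93, 1.49 and 3.22 CPM for LKO mice 1, 2 and 3. LKO mouse 3 lay within the WT range. The log2 fold change was −0.71 (SE 0.31, adjusted p = 0.101, edgeR). In TPM the means were 2.44 ± 0.141 for WT and 0.522 ± 0.295 for LKO livers (SD, n = 3), and the groups did not overlap (exact permutation, two-sided p = 0.1, which is the lowest value possible for 3 against 3 mice). In TPM 74.9% of all genes tested were separated in this direction, so the separation is not particular to *Pak4*. Its log2 ratio of mean TPM was −2.22, against a median of −1.59 for all genes tested. Relative to the median of all genes *Pak4* was −0.67 after TMM, −0.64 with total counts and −0.41 on log2(TPM + 1).

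**Figure D1:**
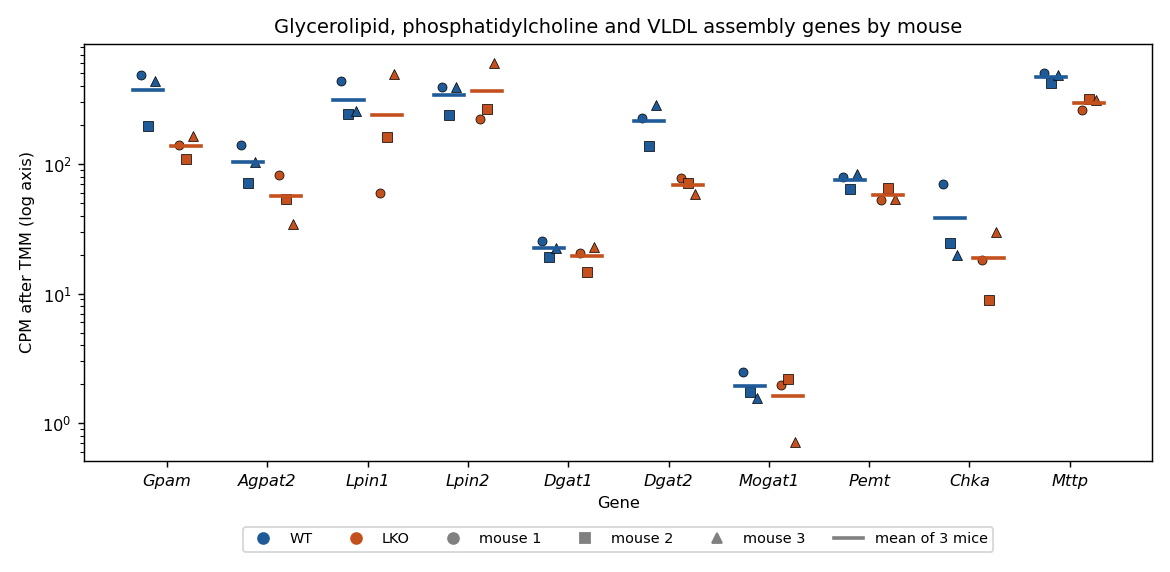
Levels of the 10 genes in each mouse as CPM after TMM on a log axis, with WT mice in blue, LKO mice in orange, 1 symbol per mouse number and a bar at the mean of 3 mice. The groups are apart for *Gpam*, *Dgat2* and *Mttp*, and the LKO mice are spread widest for *Lpin1*, from 60.2 to 494 CPM.

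*Gpam* encodes the acyltransferase of the outer mitochondrial membrane that starts glycerolipid synthesis. It lies on chromosome 19 from 55067635 to 55127319 on the minus strand in GRCm38.p6. Its levels were 486, 195 and 438 CPM for WT mice 1, 2 and 3 against 141, 109 and 165 CPM for LKO mice 1, 2 and 3. The lowest WT mouse was close to the highest LKO mouse, and the other WT mice were far above. On the log2 scale the change was −1.43 (SE 0.33, adjusted p = 0.0100, edgeR), or −1.39 relative to the median of all genes. With total counts it was −2.26, which is −1.36 relative to that scale's median. It passed under all 20 other settings, with an adjusted p of at most 0.0453.

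RefSeq lists 2 starts for *Gpam*, and the 250 bases before each are shown, because *Gpam* was called under every setting and its reads cannot be divided between the starts in a gene table. *Dgat2* was also called under every setting, but it had no entry among the start sites used and could not be shown. Windows were searched on both strands for the E-box CACGTG, the sterol element TCACNCCAC, the box named for its letters CCAAT, the nuclear receptor half-site AGGTCA, the GC box GGGCGG and the forkhead site TGTTTAC, which occur, in this order, in 6.02%, 1.05%, 33.8%, 14%, 32.7% and 3.17% of 32851 windows of that length. Capitals mark matches, none of which overlap. The outer window, chr19:55127239-55127488, and the inner window, chr19:55099478-55099727, both on the minus strand and written 5′ to 3′, read:
Gpam outer start: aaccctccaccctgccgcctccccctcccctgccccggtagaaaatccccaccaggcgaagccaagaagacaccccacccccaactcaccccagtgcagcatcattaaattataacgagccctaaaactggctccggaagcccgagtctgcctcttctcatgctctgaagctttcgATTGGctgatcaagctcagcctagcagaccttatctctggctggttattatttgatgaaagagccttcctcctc
Gpam inner start: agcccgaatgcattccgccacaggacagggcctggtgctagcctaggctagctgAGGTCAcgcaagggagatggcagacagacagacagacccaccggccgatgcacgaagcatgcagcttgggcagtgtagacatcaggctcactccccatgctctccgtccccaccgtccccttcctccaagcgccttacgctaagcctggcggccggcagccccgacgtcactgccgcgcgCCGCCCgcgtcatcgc
The outer window held the reverse complement of CCAAT, which begins 74 bases before the start. The span given for *Gpam* ends at 55127319, within the outer window, so this start is not the outermost base of the gene. That match lies within the span. The inner window held AGGTCA, which begins 196 bases before its start, and the reverse complement of GGGCGG, which begins 16 bases before it. The GC content was 54.8% in the outer and 66.0% in the inner window. These matches describe the letters of the windows only.

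*Agpat2*, which encodes the endoplasmic reticulum enzyme that makes phosphatidic acid, is on chromosome 2 (26593057 to 26604417) and was at 140, 71.1 and 103 CPM for WT livers and 82.0, 53.7 and 34.3 CPM for LKO livers. LKO mouse 1 lay above WT mouse 2, so that the groups overlapped. Its log2 fold change of −0.88 (SE 0.34, 95% interval −1.66 to −0.11) did not pass (adjusted p = 0.0693, edgeR) and was −0.84 relative to the median of all genes, or −0.82 with total counts. It passed under 10 of 20 other settings, among them the exactTest of edgeR, which the methods name (adjusted p = 0.0353). Without LKO mouse 1 it was −1.25 (adjusted p = 0.0201), and without WT mouse 1 it was −0.61 (adjusted p = 0.235, edgeR).

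The lipins dephosphorylate phosphatidic acid, and lipin 1 also acts in the nucleus as a co-activator of PPARα. *Lpin1* lies on chromosome 12 from 16535669 to 16653903, and *Lpin2* on chromosome 17 from 71183532 to 71249818. *Lpin1* was at 440, 245 and 255 CPM for WT mice 1, 2 and 3 against 60.2, 162 and 494 CPM for LKO mice 1, 2 and 3. The LKO mice thus spread over a range of 8.2-fold, with 2 mice below all WT mice and 1 mouse above them, whereas the WT mice spread over 1.79-fold. The log2 fold change was −0.39 (SE 0.63, 95% interval −1.84 to 1.06, adjusted p = 0.651, edgeR), or −0.35 relative to the median of all genes. Without LKO mouse 3 it was −1.50 (adjusted p = 0.0333), and without LKO mouse 1 it was 0.067 (adjusted p = 0.924, edgeR). Leaving out LKO mouse 3 thus changed the call, and leaving out LKO mouse 1 the direction.

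*Lpin2* was at 396, 239 and 396 CPM for WT and 222, 267 and 603 CPM for LKO livers. LKO mouse 3 was again the highest of all 6 mice, and the groups overlapped. Its log2 fold change of 0.08 (SE 0.38, 95% interval −0.79 to 0.96, adjusted p = 0.879, edgeR) was close to 0. It was −0.76 with total counts and −1.51 on log2(TPM + 1). Relative to the median of all genes it was 0.12 after TMM, 0.14 with total counts and −0.73 on log2(TPM + 1). The sign thus held against other genes with total counts. On log2(TPM + 1) it turned against a median that the added 1 draws toward 0. Without the added 1 the median log2 ratio of mean TPM was −1.59 for all genes tested. *Lpin2* was at 0.392 of the WT mean TPM, a smaller fall. The LKO mean was drawn up by LKO mouse 3, at 74.3 TPM against 24.9 and 23.4 TPM in LKO mice 1 and 2. Without LKO mouse 3 the log2 fold change after TMM was −0.49, so the direction of *Lpin2* rests on that mouse. LKO mouse 3 was also the LKO mouse with the highest *Pak4*, 3.22 CPM, and with the highest *Ppargc1a*, 110 CPM against 18.9 and 18.0 CPM in LKO mice 1 and 2. *Ppargc1a* encodes the co-activator PGC-1α that is induced by fasting. The part of these differences in the lipin values was not tested.

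The last step of triglyceride synthesis is shared by DGAT1 and DGAT2, enzymes of unrelated protein families. *Dgat2*, on chromosome 7 from 99153663 to 99182713, was at 229, 137 and 284 CPM for WT livers and 78.0, 70.7 and 58.7 CPM for LKO livers. The LKO mice were close together and all lay below the lowest WT mouse. On the log2 scale the change was −1.65 (SE 0.27, 95% interval −2.26 to −1.04, adjusted p = 0.00196, edgeR), the largest fall of the 10 genes, or −1.61 relative to the median of all genes. It passed under all 20 other settings, and leaving out each mouse in turn gave values from −1.91 to −1.42.

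*Dgat1*, on chromosome 15 from 76502012 to 76512021, was at 25.3, 19.2 and 22.6 CPM for WT and 20.7, 14.6 and 23.1 CPM for LKO livers. The groups overlapped after TMM. Its log2 fold change of −0.20 (SE 0.20, 95% interval −0.66 to 0.26) did not pass (adjusted p = 0.455, edgeR). With total counts it was −1.04 (adjusted p = 0.00763, edgeR), which is −0.14 relative to the median on that scale. *Mogat1*, on chromosome 1 from 78511060 to 78606964, encodes an acyltransferase that makes diacylglycerol from monoacylglycerol. Its read counts ran from 104 to 184 (WT) and from 33 to 86 (LKO), the lowest of the 10 genes. Its levels were 2.47, 1.74 and 1.57 CPM for WT and 1.95, 2.18 and 0.714 CPM for LKO livers, which overlapped. The log2 fold change was −0.26 (95% interval −1.22 to 0.70, adjusted p = 0.646, edgeR), which is −0.22 relative to the median of all genes, and turned to 0.098 without LKO mouse 3.

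Phosphatidylcholine coats lipid droplets and VLDL. *Pemt*, on chromosome 11 from 59970614 to 60046561, was at 78.8, 63.7 and 84.1 CPM for WT and 53.1, 65.7 and 54.1 CPM for LKO livers. LKO mouse 2 lay just above WT mouse 2. On the log2 scale the change was −0.39 (SE 0.16, 95% interval −0.76 to −0.02, adjusted p = 0.0898, edgeR). It passed with the correction for gene length, where it was −0.72 (adjusted p = 0.00648, edgeR), and with total counts, where it was −1.26, or −0.36 relative to the median. *Chka*, the choline kinase that commits choline to phospholipid, is on chromosome 19 (3851585 to 3894369) and was at 69.7, 24.6 and 19.7 CPM for WT and 18.1, 8.95 and 29.8 CPM for LKO livers. WT mouse 1 stood far above the other WT mice, and LKO mouse 3 above WT mice 2 and 3. The log2 fold change of −1.0 (SE 0.54, 95% interval −2.24 to 0.24) did not pass (adjusted p = 0.176, edgeR), was −0.96 relative to the median of all genes, and was −0.21 without WT mouse 1 (adjusted p = 0.746).

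*Mttp*, on chromosome 3 from 138089855 to 138143418, encodes the large subunit of the microsomal triglyceride transfer protein. It was at 502, 423 and 487 CPM for WT livers and 262, 316 and 312 CPM for LKO livers. Both groups were narrow and well apart. The log2 fold change was −0.67 (SE 0.17, 95% interval −1.05 to −0.28, adjusted p = 0.0143, edgeR), or −0.63 relative to the median of all genes. With total counts it was −1.53, which is also −0.63 relative to the median on that scale. The call was lost without WT mouse 1 (adjusted p = 0.0557) or WT mouse 3 (adjusted p = 0.0549, edgeR), with log2 fold changes of −0.61 and −0.65. In GENCODE M21, 457 exon bases of *Mttp* are shared with *Trmt10a* on the other strand, and the use of strand in counting is not stated, so reads of these bases could belong to either gene. *Agpat2* shares 64 such bases with *Egfl7*, *Mogat1* 200 with *BC035947* and *Chka* 165 and 74 with antisense genes.

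**Figure D2:**
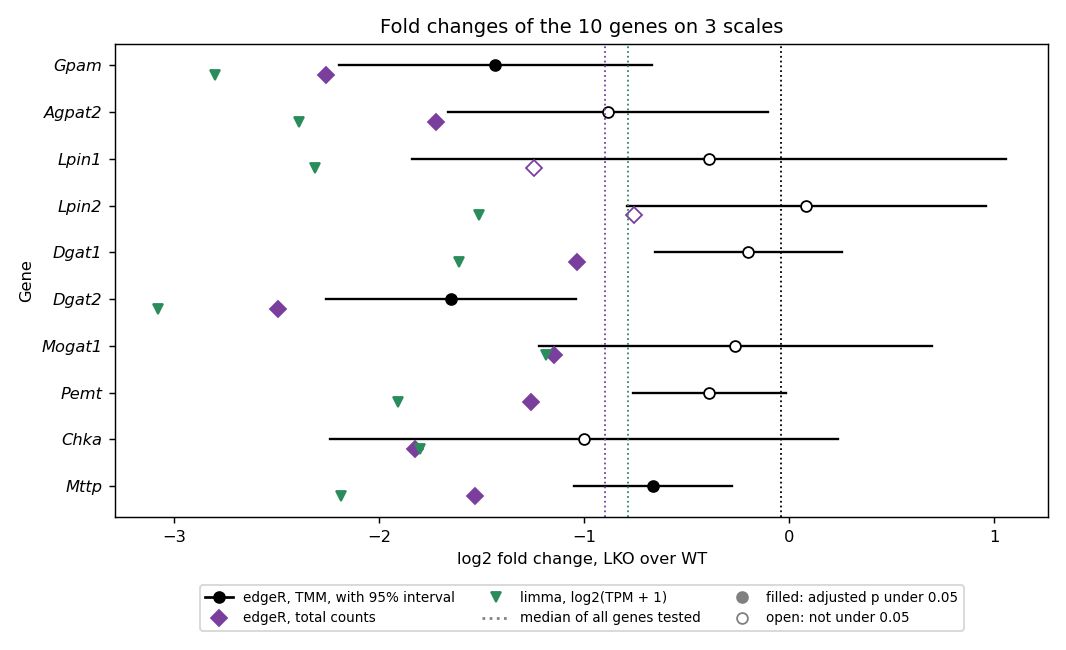
Log2 fold change of LKO over WT for each gene from edgeR after TMM (black circles with 95% intervals), edgeR with total counts (purple diamonds) and limma on log2(TPM + 1) (green triangles). Filled symbols passed an adjusted p of 0.05, dotted lines mark the median of all genes tested on each scale (−0.04, −0.90 and −0.79), and *Dgat2* and *Gpam* lie farthest to the left on all 3 scales.

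A ratio of 2 genes in the same mouse does not move with the scaling of the library, so 6 pairs were compared as log2 of the TPM ratio by exact permutation (two-sided, smallest possible p = 0.1 with 3 against 3 mice). *Dgat2* exceeded *Dgat1* by 7.74-, 6.23- and 10.9-fold in WT livers, but by 3.25-, 4.16- and 2.18-fold in LKO livers. Every LKO ratio was below every WT ratio, and the mean log2 ratio fell from 3.01 ± 0.406 to 1.63 ± 0.470 (SD, n = 3; exact permutation p = 0.1, adjusted p = 0.3 over the 6 pairs). *Dgat2* stayed the more abundant of both in all 6 mice. *Mttp* was 0.136, 0.105 and 0.120 of *Apob* in WT and 0.0318, 0.0465 and 0.0526 in LKO mice. These also did not overlap, and the log2 ratio differed by −1.49 (LKO minus WT, exact permutation p = 0.1, adjusted p = 0.3). *Apob*, which encodes the apolipoprotein that MTTP lipidates, was at 12632 ± 780.4 CPM for WT against 22479 ± 3266 CPM for LKO mice (SD, n = 3). It differed by 0.83 on the log2 scale, which did not pass (adjusted p = 0.0578, edgeR), but it passed as higher among protein-coding genes alone (0.90, adjusted p = 0.0256). With total counts it was −0.027. Relative to the median of all genes *Apob* was 0.87 after TMM, 0.87 with total counts and 0.067 on log2(TPM + 1). The last median is drawn toward 0 by the added 1. In mean TPM *Apob* was at 0.615 of WT, a smaller fall than the median log2 ratio of −1.59 without the added 1.

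The other 4 ratios overlapped between the genotypes. *Lpin1* over *Lpin2* was 1.28, 1.20 and 0.761 for WT against 0.322, 0.685 and 0.911 for LKO livers (exact permutation p = 0.2). *Gpam* over *Agpat2* was 0.858, 0.687 and 1.06 for WT against 0.419, 0.513 and 1.16 for LKO livers (exact permutation p = 0.5). LKO mouse 3 was the highest of all 6 mice in this ratio, and the other LKO mice were the lowest. The differences of the mean log2 ratio were 1.14 for *Mogat1* over *Dgat2* (exact permutation p = 0.3) and 0.30 for *Pemt* over *Chka* (p = 0.8), and the latter changed sign when WT mouse 1 or LKO mouse 2 was left out.

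**Figure D3:**
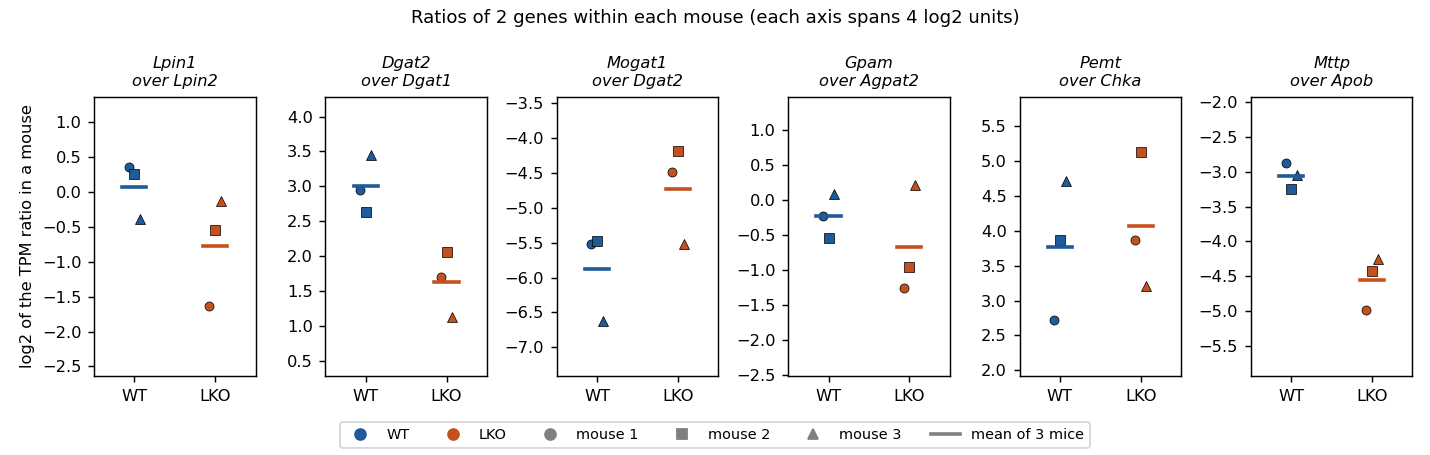
Log2 of the TPM ratio of 2 genes in each mouse for the 6 pairs, with every axis spanning 4 log2 units, WT mice in blue, LKO mice in orange and a bar at the mean of 3 mice. WT and LKO mice are apart for *Dgat2* over *Dgat1* and for *Mttp* over *Apob*, and mixed for the other 4 pairs.

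Levels of different genes were compared per gene length, as TPM. In WT mice the order by mean TPM was *Mttp* (215 ± 9.12), *Dgat2* (187 ± 53.6), *Pemt* (148 ± 12.1), *Agpat2* (133 ± 42.4), *Gpam* (117 ± 45.4), *Lpin1* (112 ± 37.7), *Lpin2* (104 ± 23.1), *Dgat1* (22.6 ± 2.72), *Chka* (12.8 ± 9.31) and *Mogat1* (3.19 ± 1.02; SD, n = 3). Neighbours from *Mttp* down to *Lpin2* differed by less than the SD of at least 1 of them, and the step from *Lpin2* down to *Dgat1* exceeded both SDs. In LKO mice *Mttp* was still first at 46.8 ± 8.19 TPM, *Lpin2* came second at 40.9 ± 29.0 TPM (24.9, 23.4 and 74.3 TPM in LKO mice 1, 2 and 3, where it ranked 5, 3 and 1), and *Dgat2* had moved from second to sixth place at 20.8 ± 4.15 TPM (SD, n = 3). *Dgat1*, *Chka* and *Mogat1* held places 8, 9 and 10 in every mouse of both genotypes.

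As a share of the summed TPM of the 10 genes, *Dgat2* made up 16.0%, 15.3% and 21.5% for WT mice against 12.1%, 10.2% and 6.38% for LKO livers, without overlap. *Lpin2* made up 9.28% to 10.5% for WT against 11.9% to 23.9% for LKO livers, also without overlap, and *Dgat1* 1.98% to 2.45% and 2.46% to 3.73%. The share of *Mttp* was 20.8% ± 3.66 for WT and 21.0% ± 3.15 for LKO livers (SD, n = 3), a difference below the SD. LKO mouse 3 differed from the other LKO mice in make-up, with 21.8% *Lpin1* against 3.84% and 9.52%, and 5.66% *Agpat2* against 19.2% and 11.3%. Shares sum to 100 and were not tested.

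**Figure D4:**
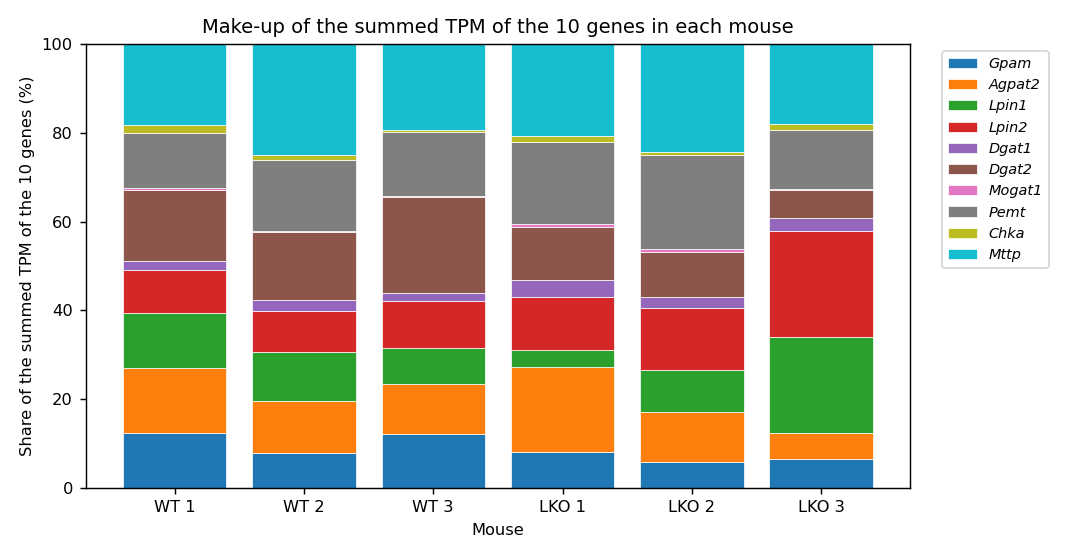
Share of each of the 10 genes in their summed TPM, as stacked bars for each mouse on an axis from 0 to 100%. The *Dgat2* band is thinner in all 3 LKO mice than in any WT mouse, and the *Lpin1* and *Lpin2* bands take 21.8% and 23.9% in LKO mouse 3.

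Around these genes, 52 other genes of glycerolipid and phospholipid synthesis and VLDL export were listed, of which 50 were tested. Of these, 22 passed as lower and 11 as higher, with 17 not passing, against 20.5% and 19.6% of all genes, and their median log2 fold change was −0.43. With total counts, 33 passed as lower and 3 as higher, where 51.4% and 6.26% of all genes did. Among the acyltransferases of the first step, *Gpat3* and *Gpat4*, the enzymes of the endoplasmic reticulum, fell with *Gpam*, by 1.01 and 0.98 on the log2 scale (adjusted p = 0.00462 and 0.00948, edgeR). *Gpd1*, which supplies glycerol 3-phosphate, fell by 1.44 (adjusted p = 0.0301), a call lost without WT mouse 1, WT mouse 3 or LKO mouse 2 (adjusted p = 0.0912, 0.0785 and 0.0994, edgeR). Of the 5 acyltransferases of the second step, *Agpat1* fell by 1.02, and *Agpat3* and *Agpat5* rose by 0.64 and 0.52 after TMM but were at −0.22 and −0.36 with total counts, where neither passed, and both at −0.76 on log2(TPM + 1), where both passed as lower. Relative to the median of all genes they were 0.67 and 0.55 after TMM, 0.67 and 0.54 with total counts, and 0.025 and 0.023 on log2(TPM + 1). Their mean TPM in LKO livers was 0.571 and 0.489 of WT, smaller falls than the median log2 ratio of −1.59 without the added 1. The call of *Agpat3* was lost without WT mouse 2 (adjusted p = 0.0504) and that of *Agpat5* when any mouse other than LKO mouse 1 was left out (adjusted p = 0.0543 to 0.126, edgeR). *Plpp1* rose by 1.46 after TMM but was at −0.078 on log2(TPM + 1), where it was 0.71 relative to the median, and *Plpp3* fell by 0.47, a call lost when any mouse other than WT mouse 2 was left out (adjusted p = 0.0749 to 0.183, edgeR). Both encode membrane-bound lipid phosphate phosphatases.

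In the CDP-choline and CDP-ethanolamine pathways, which use the products of choline and ethanolamine kinases, 4 of 8 genes tested fell and 2 rose. Over all genes tested, 20.5% passed as lower and 19.6% as higher. *Pcyt1a*, the rate-limiting enzyme of phosphatidylcholine synthesis from choline, was at 74.6, 63.1 and 87.0 CPM for WT and 36.0, 34.3 and 29.9 CPM for LKO livers (log2 fold change −1.17, SE 0.16, adjusted p = 0.00109, edgeR). Its counterpart for phosphatidylethanolamine, *Pcyt2*, fell by 1.20 and the ethanolamine phosphotransferase gene *Selenoi* by 1.14. The 2 that rose, *Cept1* (0.90) and *Etnk2* (0.96), are named here after their values were seen, and were at −0.60 and −0.54 on log2(TPM + 1), or 0.19 and 0.25 relative to the median on that scale. In mean TPM they were at 0.651 and 0.668 of WT, smaller falls than the median log2 ratio of −1.59 without the added 1. *Etnk2* overlapped between the genotypes, and its call was lost without WT mouse 1 or 2 or LKO mouse 1 or 2 (adjusted p = 0.0999 to 0.119, edgeR). *Pisd* and *Ptdss1*, of phosphatidylserine synthesis and decarboxylation, fell by 1.29 and 0.75.

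In the branch from CDP-diacylglycerol, *Cdipt*, which makes phosphatidylinositol, was at 23.7, 21.2 and 23.4 CPM for WT and 7.97, 7.40 and 7.22 CPM for LKO livers (log2 fold change −1.60, SE 0.14, adjusted p = 2.66e-04, edgeR). *Ptpmt1* and *Crls1*, which act in succession in cardiolipin synthesis in mitochondria, rose by 1.80 and 1.47 (adjusted p = 5.04e-04 and 4.78e-04, edgeR), although *Crls1* was at −0.077 on log2(TPM + 1), or 0.71 relative to the median on that scale. Among genes of phospholipid remodelling, *Lpcat2* and *Mboat7* fell by 1.02 and 0.92, and *Lpcat1* rose by 0.79 after TMM but was at −0.064 with total counts and −0.42 on log2(TPM + 1), or 0.84 and 0.36 relative to the medians. The call of *Lpcat1* was lost without WT mouse 2 or 3 or LKO mouse 1 or 3 (adjusted p = 0.0703 to 0.113, edgeR).

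Of the 10 genes of VLDL assembly and export other than *Mttp*, 6 passed as lower and 2 as higher, where 20.5% and 19.6% of all genes did. *Ces1d*, a carboxylesterase that mobilizes stored triglyceride for VLDL, fell by 1.84 on the log2 scale (adjusted p = 0.00585). *Cideb*, which acts in VLDL lipidation, fell by 1.57 (adjusted p = 6.02e-04). *Surf4*, a cargo receptor for lipoprotein export, was at 172, 134 and 146 CPM for WT and 54.4, 61.9 and 52.8 CPM for LKO livers (log2 fold change −1.42, adjusted p = 4.47e-04, edgeR). The 2 higher genes were *Sar1b* (1.29), a GTPase of COPII vesicles, and *Aadac* (1.0), named after their values were seen, which were at −0.28 and −0.59 on log2(TPM + 1), or 0.50 and 0.19 relative to the median on that scale. In mean TPM they were at 0.825 and 0.671 of WT, smaller falls than the median log2 ratio of −1.59 without the added 1.

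**Figure D5:**
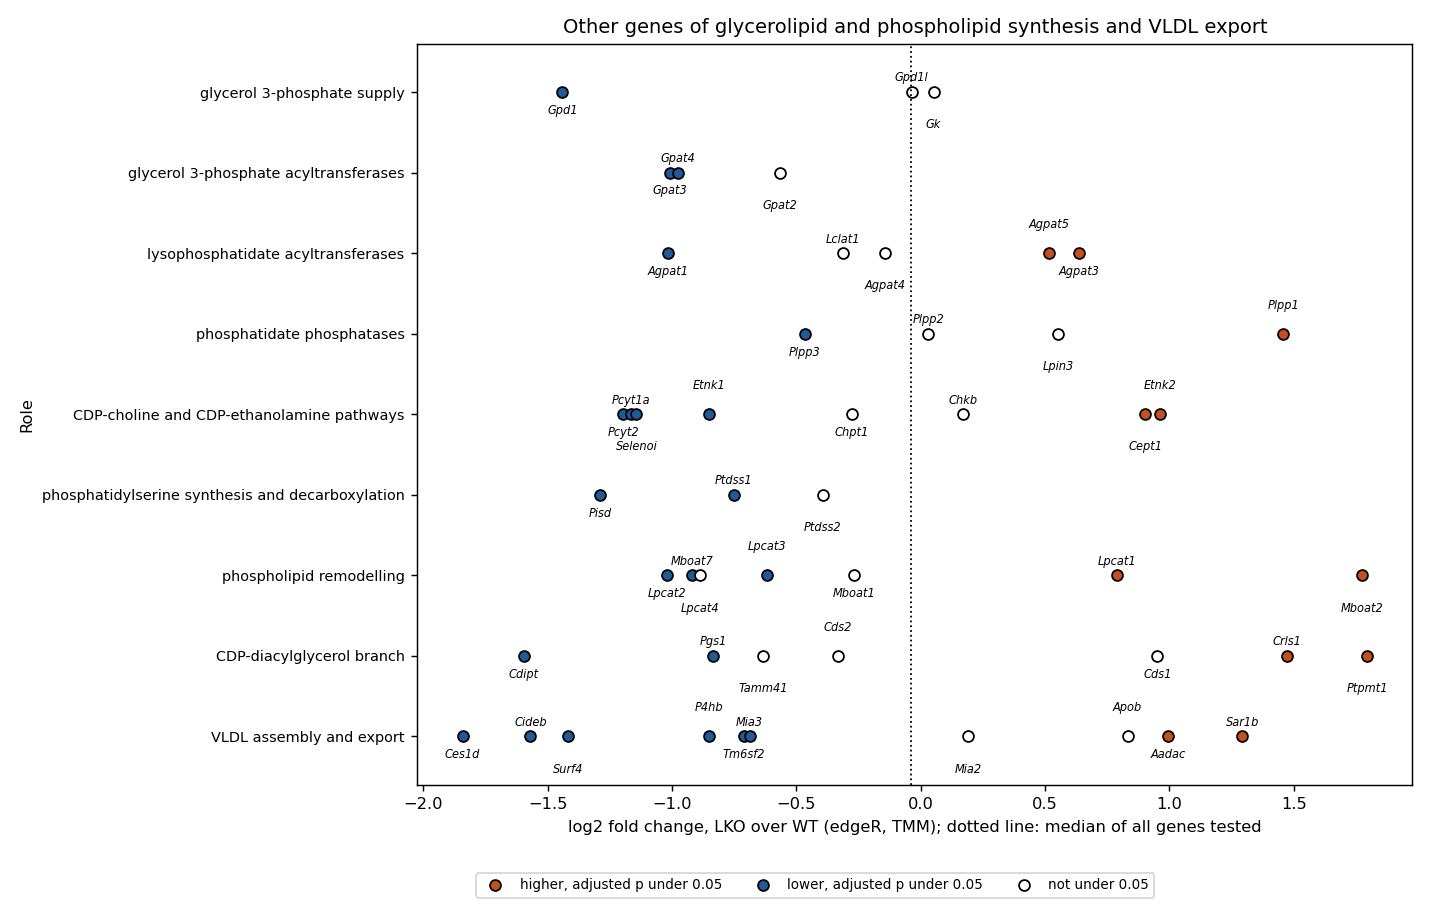
Log2 fold change of LKO over WT from edgeR after TMM for the 50 other pathway genes tested, in rows by role, with genes past an adjusted p of 0.05 in blue (22 lower) or orange (11 higher) and the rest open. Both first-step acyltransferase genes that passed lie to the left, and the row of VLDL genes runs from *Ces1d* at −1.84 to *Sar1b* at 1.29, which was at −0.28 on log2(TPM + 1).

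Of 9 transcription factors and co-activators that act on lipid genes, 5 passed as lower and 1 as higher, against 20.5% and 19.6% of all genes. *Srebf1*, which encodes the SREBP-1 factors that drive lipogenic genes including *Gpam*, was at 98.9, 69.8 and 186 CPM for WT and 11.5, 10.9 and 8.89 CPM for LKO livers (log2 fold change −3.50, adjusted p = 3.69e-04, edgeR). *Pparg* fell by 1.54 (adjusted p = 0.00230). *Ppargc1a* rose by 2.56 (adjusted p = 0.0166, edgeR), with LKO mouse 3 far above the other mice. Without that mouse it rose by 1.16 (adjusted p = 0.00265), and the call was lost without WT mouse 1, 2 or 3 (adjusted p = 0.0511, 0.0543 and 0.0607, edgeR).

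Markers of liver cell types were read beside these results. The summed TPM of 6 hepatocyte markers was 27057 to 31439 for WT against 22207 to 35976 for LKO livers, of which *Alb* made up most. After TMM *Alb*, *Apoa1* and *Cps1* passed as higher (log2 fold changes 1.72, 1.81 and 1.71) and *Ttr* as lower (−1.35, adjusted p = 0.00499, edgeR), with 3336 to 3452 TPM of *Ttr* in WT and 336 to 683 TPM in LKO mice. Their part in the results was not tested. Because adipocytes also express *Agpat2* and *Dgat2*, 5 adipocyte markers were read. *Plin1* and *Lep* had no counts in any mouse, *Adipoq* was at most 0.0907 TPM, and the sum of the 5 was 2.60 to 6.40 TPM in WT and 0.125 to 0.564 TPM in LKO mice. *Cfd* alone gave 2.50 to 5.80 TPM in WT and 0.125 to 0.533 TPM in LKO mice, and, as the marker among these that could be tested, passed as lower (log2 fold change −1.76, adjusted p = 0.0389, edgeR), the direction of *Dgat2*. Summed TPM of 4 markers each were 174 to 291 for WT against 133 to 200 for LKO livers for Kupffer cells, 98.3 to 135 and 62.5 to 103 for endothelial cells, 124 to 159 and 161 to 222 for stellate cells, 1.29 to 1.51 and 0.614 to 0.708 for cholangiocytes, and 20.5 to 37.2 and 12.7 to 23.7 for leukocytes. These sums are raw TPM, on which the median log2 ratio of all genes tested was −1.59, so a lower sum is not a fall relative to other genes. After TMM, 2 of 4 Kupffer cell, 2 of 4 endothelial, 2 of 4 stellate and 1 of 4 leukocyte markers passed as higher and none as lower, and 0 of 3 cholangiocyte markers tested passed. Of all genes tested, 19.6% passed as higher and 20.5% as lower, and so few markers per cell type do not show a change in the number of cells. The part of the other cell types in the results was not tested.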

How the data were processed

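Liver RNA of 3 WT and 3 LKO mice was sequenced with 1 library per mouse. Per gene, the authors deposited raw read counts beside FPKM and TPM, made with StringTie on mm10. The submitters' processing notes list HISAT2 2.1.0 and StringTie 2.1.3b. The methods describe a kit for total RNA after rRNA removal and the labels one for mRNA. The deposited FPKM served only for relative gene length, the deposited TPM for levels between genes, for ratios and for limma.

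Genes with more than 1 zero count were left out, which left 18636. TMM factors scaled the counts, and genotypes were compared in edgeR 4.0.16 (quasi-likelihood test, genotype as factor, adjusted p under 0.05) in R 4.3.3. Intervals are 95%. The common biological coefficient of variation was 0.254. Single values were compared with exact permutation tests (scipy 1.17.1). Alternatives used DESeq2 1.42.0, limma 3.58.1 on log2(TPM + 1), other scalings, other filters on low counts, a lowess correction for gene length (span 0.3), the replicate number as a block, and each mouse left out. Total counts of protein-coding genes were a choice made after seeing the data.

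The 10 genes and the other lists were chosen with earlier results of these data known. All 10 genes are named. Of the pathway and regulator lists, up to 3 genes per role are named by rule, those called with at least 1 CPM, no overlap and the largest change. *Apob* is named as part of a ratio, *Pak4* as the targeted gene, and *Cept1*, *Etnk2*, *Sar1b* and *Aadac* after their values were seen. Coordinates and start sites are from RefSeq (GRCm38.p6), and 8 of the 10 genes, all but *Dgat1* and *Dgat2*, matched the table of start sites. Separate animals are labelled, and spread within a group includes technical error. Depth is given as total counts.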

Additional observations from a re-analysis of the deposited data

How the results depend on the processing

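The 10 genes were compared under 20 other settings each, and of these 200 values 163 kept their direction and their side of the threshold, 26 passed newly, 3 no longer passed and 8 changed sign. For the 31 other genes named, 542 of 620 values kept both, 50 no longer passed, 12 passed newly and 16 changed sign, all 16 with total counts, protein-coding totals or log2(TPM + 1), which moved the median of all genes to −0.90, −0.79 and −0.79. Relative to those medians none of the 16 was negative. *Gpam* and *Dgat2* passed under all 20 settings, and *Mttp* under 17, the exceptions being without WT mouse 1, without WT mouse 3 and the replicate block with the correction for gene length (−0.52, adjusted p = 0.102, edgeR). With total counts in place of TMM, 9575 genes were called lower and 1167 higher, and with total counts of protein-coding genes 7393 and 1013, among them 7 of the 10 genes. Limma on log2(TPM + 1) called 12519 lower and 399 higher. Of the 10 genes, 8 were called lower with total counts, 10 with limma and 5 with the correction for gene length. Leaving out each mouse gave 2 to 5, and 5 without WT mouse 2. The share of all genes called also depends on the setting, and it is not given here for the length correction or for the fits without a mouse. Counts of called genes under these settings are thus not a result about the 10 genes or the other pathway genes. Of the other pathway genes, total counts called 3 higher, protein-coding totals 4, and limma 0 higher and 41 lower, and leaving out each mouse gave 6 to 9 higher, with 6 without WT mouse 2. The cause was not tested.

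Relative to its median *Lpin2* was positive with total counts (0.14) and protein-coding totals (0.20). Relative to the median on log2(TPM + 1), which the added 1 draws toward 0, it was negative (−0.73). Changes of sign before this correction were, with total counts, *Lpin2* (−0.76), *Agpat3* (−0.22), *Agpat5* (−0.36), *Lpcat1* (−0.064) and *Apob* (−0.027). With protein-coding totals they were *Lpin2* (−0.59), *Agpat3* (−0.045) and *Agpat5* (−0.18). On log2(TPM + 1) they were *Lpin2* (−1.51), *Agpat3* (−0.76), *Agpat5* (−0.76), *Plpp1* (−0.078), *Lpcat1* (−0.42), *Crls1* (−0.077), *Apob* (−0.72), *Cept1* (−0.60), *Etnk2* (−0.54), *Sar1b* (−0.28) and *Aadac* (−0.59). Leaving out each mouse gave −1.50 (without LKO mouse 3) to 0.067 (without LKO mouse 1) for *Lpin1*, −0.49 (without LKO mouse 3) to 0.34 for *Lpin2*, which was −0.14 without WT mouse 2, and −0.53 to 0.098 (without LKO mouse 3) for *Mogat1*. The log2 ratio of *Pemt* over *Chka* was −0.11 with 1 TPM added and −0.23 to 0.77 when each mouse was left out.

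Replicate numbers are shared between the genotypes, but the deviations of same-numbered mice from their group means correlated by 0.00023, −0.039 and −0.056, and no WT mouse correlated best with the LKO mouse of its number. No pairing by number was thus seen in these values. They cannot show whether same-numbered mice shared a litter, a cage or a batch, which the labels do not state. With the replicate number as a block, 3302 genes were called lower and 3129 higher, 4 of the 10 genes were called lower, and *Lpin2* was at −0.019. Groups of 3 mice limit the precision.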
